A study of Homo sapiens with 9 samples.

Results

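The RNAs made from the mitochondrial genome were followed in A549, an established cell line from a human lung adenocarcinoma, after it was exposed to apoptotic extracellular vesicles (apoEVs). Such vesicles are membrane-enclosed fragments released by cells undergoing apoptosis. The members were all rows of the deposited count table placed on chromosome MT, 37 of 62257 gene rows: 13 protein genes, 2 ribosomal RNA (rRNA) genes and 22 transfer RNA (tRNA) genes. All 37 symbols carry the MT prefix of mitochondrially encoded genes, and the numbers per class are those of the complete gene set of this genome. The cells had been kept for 96 h with vesicles from staurosporine-induced apoptosis (STS_apoEV), with vesicles from cisplatin-induced apoptosis (DDP_apoEV), or with phosphate-buffered saline (control), 3 libraries in each group and 9 in all. Staurosporine is a broad protein kinase inhibitor and cisplatin a platinum drug that crosslinks DNA. Which cells shed the vesicles is not stated in the labels, and RNA carried by the vesicles cannot be told apart from RNA of the A549 cells in these libraries. Whether the 3 libraries in each group came from different cultures is not stated in the labels, so the p-values given here rest on the variation among these libraries alone, and that variation may be technical.

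Total counts per library lay between 13799950 and 16526399. The mitochondrial rows held 12.7%, 13% and 13.1% of the counts with STS_apoEV, 12.1%, 12.2% and 13.1% with DDP_apoEV, and 11.4%, 12.3% and 12.5% in control. The STS_apoEV libraries all lay above the control libraries, by 0.869 percentage points on average, with an exact two-sided permutation p of 0.1, the smallest that 3 libraries against 3 allow. Adjusted over the 42 comparisons of shares made here, that p was 0.168. The DDP_apoEV and control libraries overlapped (difference 0.415 points, exact permutation p = 0.6), as did the STS_apoEV and DDP_apoEV libraries (0.455 points, exact permutation p = 0.3). In bulk RNA, fewer cells of a type and less RNA per cell cannot be told apart.

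The human mitochondrial genome is a compact circle without introns, read from both strands as long precursor transcripts. tRNA genes stand between most of its rRNA and protein genes, and cutting the tRNAs out of the precursor frees the RNAs on either side, a scheme known as tRNA punctuation. Its protein genes encode core subunits of the respiratory chain complexes I, III and IV and of the ATP synthase (complex V), while the enzymes that copy, cut, modify, translate and degrade mitochondrial RNA are encoded in the nucleus.

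8 tRNA genes are shown here in full, with the anticodon in capitals, as spelled by the GENCODE v29 transcripts on build hg38. MT-TL1 carries leucine and lies at chrM:3230-3304 on the plus strand, MT-TY carries tyrosine (chrM:5826-5891, minus strand), MT-TD aspartate (chrM:7518-7585, plus), MT-TK lysine (chrM:8295-8364, plus) and MT-TT threonine (chrM:15888-15953, plus). These 5 are shown because their counts were called higher with both kinds of vesicle than in control.
MT-TL1: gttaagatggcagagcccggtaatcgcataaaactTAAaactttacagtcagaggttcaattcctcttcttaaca
MT-TY: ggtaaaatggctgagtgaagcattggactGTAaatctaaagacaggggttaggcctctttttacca
MT-TD: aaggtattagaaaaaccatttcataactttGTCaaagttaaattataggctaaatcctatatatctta
MT-TK: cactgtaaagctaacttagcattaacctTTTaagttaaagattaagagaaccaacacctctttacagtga
MT-TT: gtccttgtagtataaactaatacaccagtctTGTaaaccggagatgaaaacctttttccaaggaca

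Another 3 are shown because their counts differed between the vesicle types: MT-TV for valine (chrM:1602-1670, plus strand), MT-TG for glycine (chrM:9991-10058, plus) and MT-TH for histidine (chrM:12138-12206, plus).
MT-TV: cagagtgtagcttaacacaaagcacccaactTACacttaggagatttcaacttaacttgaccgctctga
MT-TG: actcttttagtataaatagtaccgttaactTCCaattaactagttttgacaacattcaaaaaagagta
MT-TH: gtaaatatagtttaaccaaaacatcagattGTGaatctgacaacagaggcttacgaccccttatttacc

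GC content among the 20 tRNA genes with enough counts to test ran from 23.1% to 49.3% with a median of 38.3%. Across those 20 genes it had a Spearman correlation with the log2 fold change of −0.29 for STS_apoEV against control, 0.15 for DDP_apoEV against control and −0.39 for STS_apoEV against DDP_apoEV, given as descriptions across genes that share their libraries. The reads of MT-ATP8 and MT-ATP6, the small and the channel-forming ATP synthase subunit, cannot be fully separated because the genes share 46 bases. The shared stretch is in capitals here, with 14 bases on either side (chrM:8513-8586, plus strand), since MT-ATP8 is among the genes that differed between vesicle types.
MT-ATP8/MT-ATP6: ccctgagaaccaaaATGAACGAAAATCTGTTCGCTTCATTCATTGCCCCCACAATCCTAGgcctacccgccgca

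Per length, on the scale of the deposited FPKM values averaged over the 9 libraries, complex IV subunits led. MT-CO1, the catalytic subunit, had a mean level of 22011 FPKM (20527 to 23106 across libraries), MT-CO3 18542 FPKM (16065 to 20746) and MT-CO2 14209 FPKM (12599 to 15504). The large-subunit rRNA MT-RNR2 followed with 13389.9 FPKM and the ATP synthase subunit MT-ATP6 with 11409 FPKM. The complex I subunits spread from MT-ND4 at 8988 FPKM to MT-ND5 at 1187 FPKM (955 to 1428), and MT-ATP8 was lowest of the protein genes at 261 FPKM (195 to 322). Of the 207 bases of MT-ATP8, 46 are shared with MT-ATP6. The part that read assignment plays in the MT-ATP8 value was not tested. Library ranges of neighbours in this order overlapped for MT-CO1 with MT-CO3 and for MT-CO2 with MT-RNR2 (12066 to 14388), but not for MT-CO3 with MT-CO2 or for MT-ND4 (7946 to 10389.8) with MT-ND1 (5091 to 7545). Within each of the 9 libraries MT-CO1 lay above MT-CO3. MT-CO2 lay below MT-RNR2 in control replicates 1 and 2 and above it in every other library. Among the plus-strand protein genes, the mean level and the start position had a Spearman correlation of −0.40 (n = 12 genes).

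tRNA genes covered the widest range of levels per length. MT-TC, for cysteine, averaged 3108 FPKM, MT-TN (asparagine) 2681 FPKM, MT-TP (proline) 1389 FPKM, MT-TL1 988 FPKM and MT-TY 835 FPKM, each above MT-ATP8. The tRNA genes are 59 to 75 bases long, and the part that so short a length plays in their FPKM beside longer genes was not tested. Below MT-TV (281 FPKM) and MT-TT (254 FPKM), the other tRNA genes lay between 60.6 FPKM for MT-TE and 2.67 FPKM for MT-TF. Of the 5 most counted tRNA genes all but MT-TL1 are on the minus strand, and they held 90.1% to 91.3% of the tRNA counts as group means. MT-TC, MT-TN, MT-TP and MT-TY also adjoin no rRNA or protein gene. The same holds for MT-TQ, MT-TA and MT-TS2, at 21.2, 7.87 and 7.40 FPKM. MT-TL1 adjoins such genes, as do MT-TE and MT-TS1 on the minus strand, at 60.6 and 30.7 FPKM. The part that adjacency plays in these levels was not tested. MT-TF (phenylalanine) and MT-TS2 (serine) did not pass the filter on low counts and were not tested. MT-TF had 0 to 6 counts per library and MT-TS2 4 to 12. The library kit is not stated to keep strand, so reads from the minus-strand genes, MT-ND6 and 8 tRNA genes, cannot be told apart from reads of the opposite strand. Reads of a mature tRNA likewise cannot be told apart from reads of an uncut precursor.

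Values by library below are TMM-scaled CPM, that is, read counts relative to the scaled size of the library, and fold changes are edgeR quasi-likelihood estimates on the log2 scale, ± SE, with adjusted p-values over all 16947 genes tested. A gene was called at an adjusted p under 0.05. With STS_apoEV, 14 of the 35 mitochondrial genes tested rose against control and 0 fell, beside 32.8% of all genes called (15.9% higher and 16.8% lower). The median log2 fold change of the 35 was 0.28, against 0.01 over all genes tested. With DDP_apoEV, 10 of 35 rose and 0 fell, beside 15.5% of all genes called (7.16% higher and 8.32% lower), and the medians were 0.21 and −0.0033. These comparisons share the control libraries. At an unadjusted p under 0.05 edgeR had 0 mitochondrial genes lower with STS_apoEV and 1 lower with DDP_apoEV. DESeq2 and limma-voom called 0 lower in either, and limma on log2(FPKM + 1) called 0 with STS_apoEV and 1, MT-TG, with DDP_apoEV. Between STS_apoEV and DDP_apoEV, 3 were higher and 4 lower with STS_apoEV, beside 39.7% of all genes (20.2% higher and 19.5% lower), with medians of 0.02 and 0.03.

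**Figure D1:**
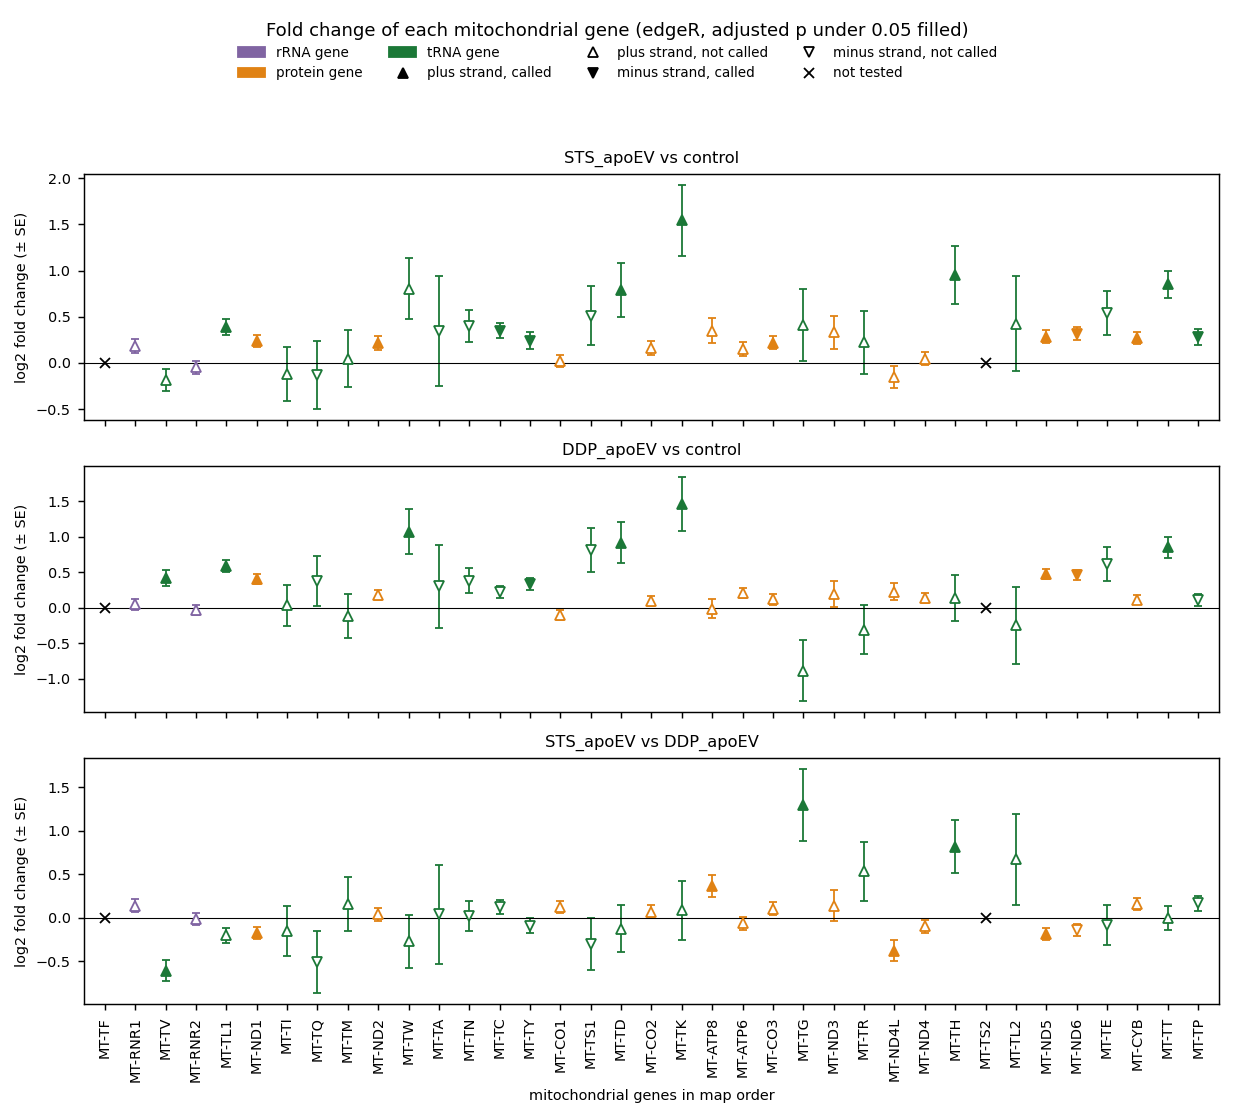
Log2 fold change of each mitochondrial gene (vertical axis, edgeR estimate ± SE) in map order along the genome, in 3 panels for STS_apoEV against control, DDP_apoEV against control and STS_apoEV against DDP_apoEV. Filled symbols passed the threshold, triangles point up for plus-strand and down for minus-strand genes, and crosses mark the 2 genes not tested. All 14 filled symbols in the STS_apoEV panel and all 10 in the DDP_apoEV panel lie above 0.

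The libraries of 16 mitochondrial genes lay wholly above control with STS_apoEV and 0 wholly below, where 43.3% of all genes tested did not overlap (21.6% higher and 21.7% lower). With DDP_apoEV 16 lay wholly above and 1 wholly below, where 32.2% of all genes did not overlap (15.8% higher and 16.4% lower). Between STS_apoEV and DDP_apoEV, 4 were wholly higher and 5 wholly lower with STS_apoEV, where 47.5% of all genes did not overlap (24.3% higher and 23.2% lower). Limma was also run on FPKM values, on the scales log2(FPKM + 1) and log2(FPKM + 0.1). On the first of these, without a filter on low values, it called 3 genes for STS_apoEV, 4 for DDP_apoEV and 3 between the vesicle types. In the fits that left out 1 library, the count for STS_apoEV fell to 9 without control replicate 1 and the count between vesicle types to 2 without DDP_apoEV replicate 3.

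Among the complex I subunits, the proton-pumping entry point of the respiratory chain, MT-ND5 and MT-ND6 rose with both kinds of vesicle in every fit that left out 1 library. MT-ND5, a subunit of the membrane arm, stood at 2247, 2165 and 2207 CPM with STS_apoEV, 2417, 2517 and 2601 CPM with DDP_apoEV and 1746, 1875 and 1810.0 CPM in control. The 3 groups did not overlap, with DDP_apoEV highest and control lowest. MT-ND5 rose by 0.29 ± 0.07 with STS_apoEV (adjusted p = 0.000955) and by 0.47 ± 0.07 with DDP_apoEV (adjusted p = 2.66e-06).

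MT-ND6, also of the membrane arm and the protein gene on the minus strand, had 835, 867 and 906 CPM with STS_apoEV, 1012, 881 and 987 CPM with DDP_apoEV and 711, 663 and 722 CPM in control. Both vesicle groups lay wholly above control and overlapped each other. It rose by 0.32 ± 0.07 with STS_apoEV (adjusted p = 0.00066) and by 0.46 ± 0.07 with DDP_apoEV (adjusted p = 1.24e-05). Reads of the opposite strand cannot be told apart in the MT-ND6 counts. MT-ND1, which helps form the quinone-binding channel, had 5798, 6117 and 6198 CPM with STS_apoEV, 6469.9, 6654 and 7249 CPM with DDP_apoEV and 4913, 5250.4 and 5228 CPM in control, again with DDP_apoEV highest, control lowest and no overlap. MT-ND1 rose by 0.23 ± 0.07 with STS_apoEV (adjusted p = 0.0072) and by 0.40 ± 0.07 with DDP_apoEV (adjusted p = 4.6e-05). Its STS_apoEV call was lost without control replicate 1 (0.0702), where the number in brackets is the adjusted p of that fit.

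MT-ND2, a membrane-arm subunit, had 5814, 6297 and 6201 CPM with STS_apoEV, 5674, 5619.9 and 6498 CPM with DDP_apoEV and 4764, 5423 and 5555 CPM in control. Both vesicle groups lay wholly above control. It rose by 0.22 ± 0.07 with STS_apoEV (adjusted p = 0.0207), while the DDP_apoEV change of 0.18 ± 0.07 was not called (adjusted p = 0.105). The STS_apoEV call was lost without STS_apoEV replicate 2 (0.0584) or 3 (0.0567) or control replicate 1 (0.216), with limma on either log2 FPKM scale (0.0882 and 0.09) or with no filter on low counts (0.0673). A nuclear copy, the pseudogene MTND2P28, shares sequence with MT-ND2 and had 394 ± 35.4, 436 ± 93.6 and 340 ± 31.3 CPM with STS_apoEV, with DDP_apoEV and in control (SD, n = 3). How far reads were split between the gene and the copy was not tested.

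The other 3 complex I subunits were not called against control. MT-ND4, the most abundant of them per length, had 11979, 12436 and 12683 CPM with STS_apoEV, 12669, 12648 and 14388 CPM with DDP_apoEV and 11052, 12528 and 12366 CPM in control, so that the DDP_apoEV libraries lay wholly above control and the STS_apoEV libraries overlapped it. Its log2 fold changes were 0.05 ± 0.07 with STS_apoEV and 0.14 ± 0.07 with DDP_apoEV (adjusted p = 0.675 and 0.186). MT-ND4L, which overlaps MT-ND4 by 7 bases, had 1055, 1049 and 1294 CPM with STS_apoEV, 1362, 1403 and 1645 CPM with DDP_apoEV and 1168, 1481 and 1118 CPM in control. Here the control libraries overlapped both vesicle groups (adjusted p = 0.395 with STS_apoEV and 0.257 with DDP_apoEV), although the DDP_apoEV change was called without control replicate 2 (0.00976). MT-ND3, a small subunit near the quinone site, had 952, 1029.7 and 1418 CPM with STS_apoEV, 1103, 847 and 1134 CPM with DDP_apoEV and 973, 864 and 861 CPM in control, with overlap between all groups. Its changes of 0.33 ± 0.18 with STS_apoEV and 0.19 ± 0.18 with DDP_apoEV were not called (adjusted p = 0.216 and 0.566), although the STS_apoEV change was called with no filter on low counts (0.00916) and with limma-voom (0.0482).

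**Figure D2:**
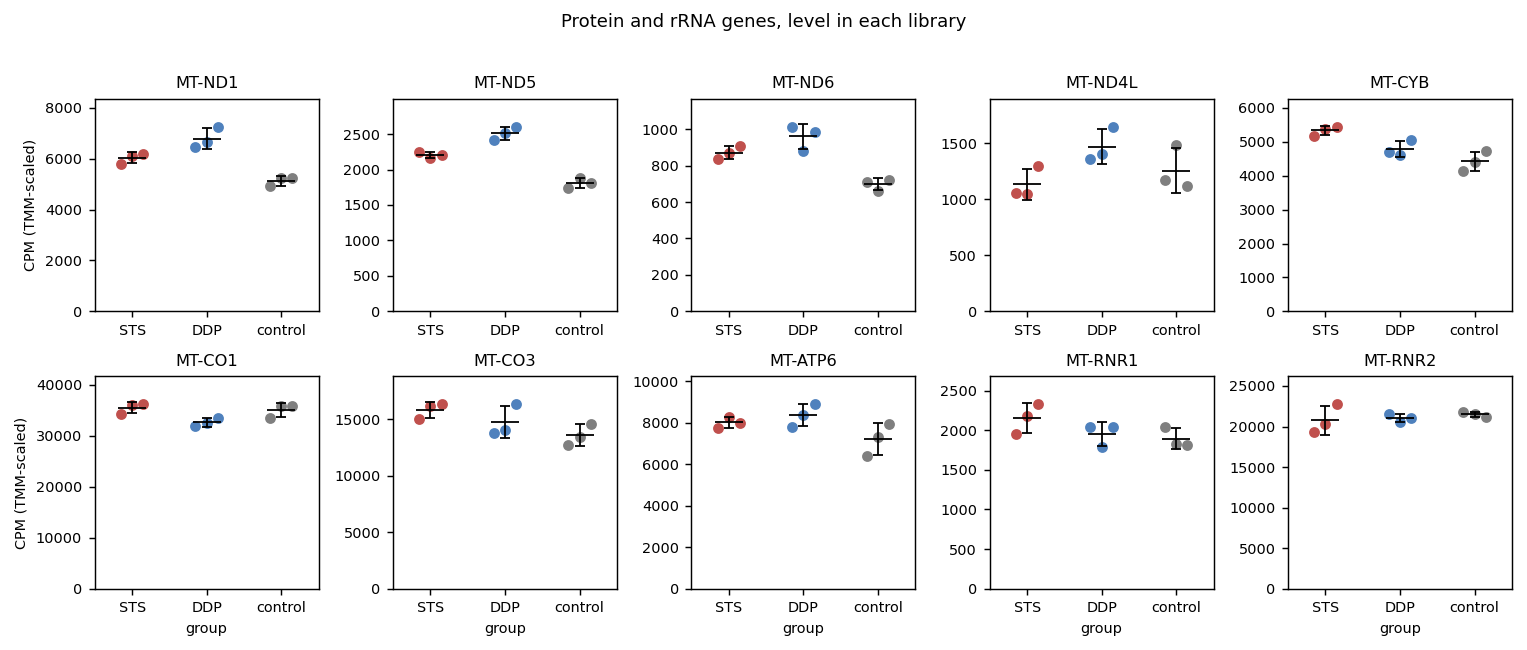
Level of 8 mitochondrial protein genes and both rRNA genes (vertical axis, TMM-scaled CPM from 0) in each library, for STS_apoEV, DDP_apoEV and control from left to right. Points are libraries and bars are the mean ± SD of 3. MT-ND1 and MT-ND5 separate all 3 groups, while MT-CO1 and both rRNAs overlap between vesicle groups and control.

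Outside complex I, 2 of 6 protein genes rose with STS_apoEV and 0 of 6 with DDP_apoEV, beside 15.9% and 7.16% of all genes called higher. The 0 of 6 is near its share and is not a result about these genes. MT-CYB, the cytochrome b of complex III and its only mitochondrially encoded subunit, had 5175, 5389 and 5441 CPM with STS_apoEV, 4696, 4613 and 5055 CPM with DDP_apoEV and 4154, 4394 and 4717 CPM in control. The STS_apoEV libraries lay wholly above both other groups, and the DDP_apoEV libraries overlapped control. It rose by 0.27 ± 0.07 with STS_apoEV (adjusted p = 0.00229) in every fit that left out 1 library, and was not called with DDP_apoEV (0.11 ± 0.07, adjusted p = 0.294).

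Of the complex IV subunits, which pass electrons to oxygen, MT-CO3 alone was called. MT-CO3 had 15002, 16147 and 16319 CPM with STS_apoEV, 13763, 14065 and 16345 CPM with DDP_apoEV and 12713, 13439 and 14603 CPM in control, with STS_apoEV wholly above control and DDP_apoEV overlapping both. It rose by 0.22 ± 0.07 with STS_apoEV (adjusted p = 0.0202), and its change with DDP_apoEV was 0.12 ± 0.07 (adjusted p = 0.33). The STS_apoEV call was lost without STS_apoEV replicate 3 (0.0736) or control replicate 1 (0.159) or 2 (0.075), with limma on either log2 FPKM scale (0.0952 and 0.1) or with no filter on low counts (0.0601). MT-CO2, which receives electrons from cytochrome c, had 9655, 10839.7 and 10606 CPM with STS_apoEV, 9812, 9331 and 10472 CPM with DDP_apoEV and 8699, 9076 and 10018 CPM in control. The groups overlapped, and neither change was called (adjusted p = 0.0822 with STS_apoEV and 0.448 with DDP_apoEV). The STS_apoEV change was called without STS_apoEV replicate 1 (0.0371) or control replicate 3 (0.0357) or with upper-quartile factors (0.0483).

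MT-CO1 had 34203, 36023 and 36163 CPM with STS_apoEV, 31811, 32417 and 33501 CPM with DDP_apoEV and 33416, 35764 and 35781 CPM in control. The vesicle groups overlapped control, and the DDP_apoEV libraries were all below the STS_apoEV libraries. Its log2 fold change was 0.02 with STS_apoEV (95% interval −0.11 to 0.15, adjusted p = 0.859), a sign that turned with no filter on low counts (−0.0015), relative to the mitochondrial pool (−0.07) and without control replicate 1 (−0.02). With DDP_apoEV it was −0.10 (95% interval −0.23 to 0.03, adjusted p = 0.335). Of the ATP synthase subunits, MT-ATP6 had 7756, 8260.0 and 7995 CPM with STS_apoEV, 7802, 8374 and 8889 CPM with DDP_apoEV and 6402, 7326 and 7935 CPM in control. Control replicate 3 lay within the vesicle groups, and neither change was called (adjusted p = 0.129 with STS_apoEV and 0.0509 with DDP_apoEV). The DDP_apoEV change was called without DDP_apoEV replicate 1 (0.0436) or control replicate 3 (0.0205) and with DESeq2 (0.0327). It was also called with median-of-ratios size factors (0.0458), with limma-voom (0.0399) and in a fit of the compared libraries alone (0.0447). The STS_apoEV change was called without control replicate 3 (0.0399). MT-ATP8, which lies in the stator of the enzyme, had 59.6, 68.1 and 64.1 CPM with STS_apoEV, 62.9, 40.6 and 45.6 CPM with DDP_apoEV and 48.7, 55.1 and 46.7 CPM in control. The STS_apoEV libraries lay wholly above control, and the change of 0.35 ± 0.13 was not called (adjusted p = 0.0536), except by DESeq2 (0.0271) and under other settings. Its DDP_apoEV libraries ran from below the lowest control library to within the STS_apoEV range (−0.01 ± 0.13, adjusted p = 0.965).

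Neither rRNA was called in any comparison. MT-RNR2, the RNA of the large mitochondrial ribosome subunit, had 19289, 20292 and 22766 CPM with STS_apoEV, 21529, 20585 and 21052 CPM with DDP_apoEV and 21777, 21599 and 21142 CPM in control. All groups overlapped, with log2 fold changes of −0.05 with STS_apoEV (95% interval −0.18 to 0.09, adjusted p = 0.635) and −0.03 with DDP_apoEV (95% interval −0.17 to 0.10, adjusted p = 0.829). MT-RNR1, the small-subunit rRNA, had 1957, 2178 and 2333 CPM with STS_apoEV, 2041, 1785 and 2048 CPM with DDP_apoEV and 2047, 1822 and 1819.9 CPM in control. Control replicate 1 lay within both vesicle groups. The STS_apoEV change was 0.19 (95% interval 0.04 to 0.33, adjusted p = 0.0582) and was called without STS_apoEV replicate 1 (0.0201) or control replicate 1 (0.0434) or with upper-quartile factors (0.0310). With DDP_apoEV it was 0.05 (95% interval −0.10 to 0.19, adjusted p = 0.752).

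Ratios within each library describe the mitochondrial genes free of library scaling. Those with MT-CO1 set a gene not called against control over MT-ND1 and MT-ND5, called higher with both kinds of vesicle. Their group order restates the gene values and is not separate support. The FPKM of MT-CO1 over that of MT-ND1 was 3.66, 3.65 and 3.62 with STS_apoEV, 3.05, 3.02 and 2.87 with DDP_apoEV, and 4.22, 4.22 and 4.24 in control. The 3 groups did not overlap, with control highest and DDP_apoEV lowest. MT-CO1 over MT-ND5 was 18.9 ± 0.885 with STS_apoEV, 15.2 ± 0.191 with DDP_apoEV and 22.7 ± 0.450 in control (SD, n = 3), in the same order. MT-ND5 over MT-ND6, genes on opposite strands that neighbour each other, was 0.736 ± 0.0383, 0.761 ± 0.0680 and 0.753 ± 0.0584, with overlap between all groups. The library is not stated to keep strand, so MT-ND6 counts may include reads of the opposite strand, which this ratio cannot separate. MT-RNR2 over MT-RNR1 was 5.90 ± 0.176 with STS_apoEV, 6.60 ± 0.404 with DDP_apoEV and 6.96 ± 0.394 in control, with STS_apoEV wholly below both other groups.

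By complex, complex I genes held 28.5% ± 0.341 of the mitochondrial protein-gene counts with STS_apoEV, 31.2% ± 0.482 with DDP_apoEV and 28.0% ± 0.588 in control (SD, n = 3). The DDP_apoEV libraries lay wholly above both other groups, with an exact permutation p of 0.1 in each case (0.168 adjusted over the 42 comparisons), while STS_apoEV and control overlapped (exact permutation p = 0.3). Complex IV held 58.8% ± 0.263 with STS_apoEV, 55.9% ± 0.409 with DDP_apoEV and 59.9% ± 0.514 in control, and no 2 groups overlapped (exact permutation p = 0.1 for each pair). Complex III, that is MT-CYB, held 5.09% ± 0.0527 with STS_apoEV, 4.68% ± 0.0673 with DDP_apoEV and 4.58% ± 0.102 in control, with STS_apoEV wholly above both other groups. Complex V held 7.69% ± 0.170 with STS_apoEV, 8.22% ± 0.247 with DDP_apoEV and 7.52% ± 0.407 in control, with DDP_apoEV wholly above both other groups. MT-CO1 and MT-RNR2 together took 43.7% ± 0.415 of all mitochondrial counts with STS_apoEV, 42.6% ± 1.28 with DDP_apoEV and 46.9% ± 1.06 in control, and both vesicle groups lay wholly below control (exact permutation p = 0.1 each). Neither gene was called in any comparison, while other mitochondrial genes rose. The share of this pair therefore restates those values and is not separate support for them.

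**Figure D3:**
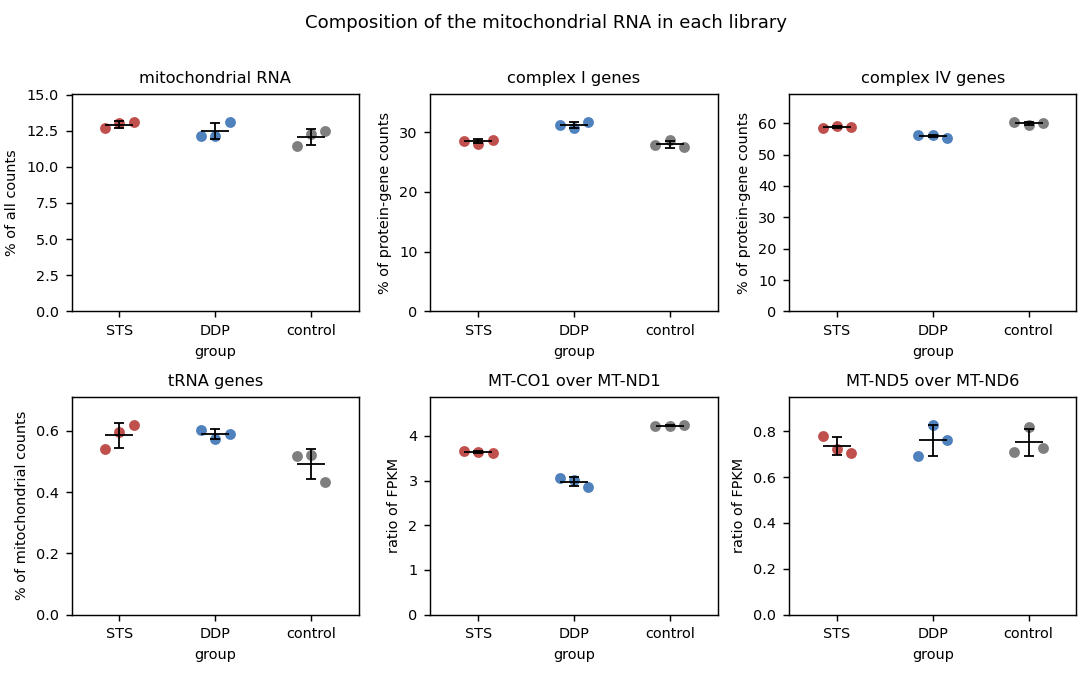
Make-up of the mitochondrial RNA in each library for STS_apoEV, DDP_apoEV and control from left to right: mitochondrial share of all counts, complex I and complex IV shares of mitochondrial protein-gene counts and tRNA share of mitochondrial counts (percent), and the FPKM ratios MT-CO1 over MT-ND1 and MT-ND5 over MT-ND6. Points are libraries and bars are the mean ± SD of 3. MT-CO1 over MT-ND1 runs from 4.22 to 4.24 in control and lies below that in all 6 vesicle libraries, while MT-ND5 over MT-ND6 overlaps between all groups.

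tRNA genes together made up 0.585% ± 0.0400 of the mitochondrial counts with STS_apoEV, 0.588% ± 0.0160 with DDP_apoEV and 0.491% ± 0.0497 in control (SD, n = 3). Both vesicle groups lay wholly above control (exact permutation p = 0.1, adjusted 0.168, for each) and overlapped each other. The rRNA share was 17.8% ± 0.860, 18.3% ± 0.880 and 19.4% ± 1.13, with overlap. Of the 20 tRNA genes tested, 8 rose with STS_apoEV and 7 with DDP_apoEV, 5 of them with both, and 0 fell in either comparison. Among all genes 15.9% were called higher and 16.8% lower with STS_apoEV, and 7.16% and 8.32% with DDP_apoEV.

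MT-TL1, whose gene separates MT-RNR2 from MT-ND1, had 72.3, 81.6 and 77.6 CPM with STS_apoEV, 83.3, 85.1 and 97.8 CPM with DDP_apoEV and 56.5, 64.4 and 55.8 CPM in control. No vesicle library overlapped control. It rose by 0.39 ± 0.09 with STS_apoEV (adjusted p = 0.000535) and by 0.59 ± 0.09 with DDP_apoEV (adjusted p = 4.09e-06), in every fit that left out 1 library. Per 100 counts of its neighbour MT-RNR2 there were 0.372 ± 0.0307 MT-TL1 counts with STS_apoEV, 0.422 ± 0.0395 with DDP_apoEV and 0.274 ± 0.0211 in control, again with no overlap between vesicle groups and control (exact permutation p = 0.1 each). MT-TT, which lies beyond MT-CYB, had 17, 17.9 and 25 CPM with STS_apoEV, 21.6, 18.3 and 19.8 CPM with DDP_apoEV and 12.6, 9.23 and 11.2 CPM in control. The vesicle groups lay wholly above control and overlapped each other. MT-TT rose 1.8-fold with STS_apoEV (log2 fold change 0.85 ± 0.15, adjusted p = 2.63e-05) and 1.8-fold with DDP_apoEV (0.85 ± 0.14, adjusted p = 6.76e-05), also in every such fit.

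MT-TK, between MT-CO2 and MT-ATP8, had the largest fold change of the 35 genes in both comparisons with control, at low counts. Its values were 1.61, 2.23 and 2.32 CPM with STS_apoEV, 2.19, 1.4 and 2.22 CPM with DDP_apoEV and 0.651, 0.616 and 0.833 CPM in control. Vesicle and control libraries did not overlap. MT-TK rose 2.92-fold with STS_apoEV (1.54 ± 0.38, adjusted p = 0.00179) and 2.75-fold with DDP_apoEV (1.46 ± 0.38, adjusted p = 0.00685), and kept both calls when any 1 library was left out. MT-TD, between MT-CO1 and MT-CO2, had 2.31, 4.32 and 4.01 CPM with STS_apoEV, 4.56, 3.17 and 3.88 CPM with DDP_apoEV and 2.21, 2.46 and 1.46 CPM in control. STS_apoEV replicate 1 lay within control, while DDP_apoEV lay wholly above it. It rose by 0.79 ± 0.29 with STS_apoEV (adjusted p = 0.034) and by 0.92 ± 0.29 with DDP_apoEV (adjusted p = 0.0255). The STS_apoEV call was lost without STS_apoEV replicate 2 (0.155) or 3 (0.11) or control replicate 1 (0.0602) or 3 (0.159), with limma on either log2 FPKM scale (0.0565 and 0.056), with no filter on low counts (0.0603) or with limma-voom (0.0685), and the DDP_apoEV call without DDP_apoEV replicate 1 (0.126) or 3 (0.053) or control replicate 3 (0.145) or with limma on log2(FPKM + 1) (0.0504).

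The remaining tRNA genes called on the plus strand each rose with 1 kind of vesicle. MT-TH, between MT-ND4 and MT-ND5, had 2.59, 3.37 and 2.96 CPM with STS_apoEV, 2.13, 1.46 and 1.46 CPM with DDP_apoEV and 1.5, 1.3 and 1.8 CPM in control, with STS_apoEV wholly above both other groups. MT-TH rose 1.94-fold with STS_apoEV (0.95 ± 0.31, adjusted p = 0.0169) and was not called with DDP_apoEV (0.13 ± 0.32, adjusted p = 0.841). Its call was lost without STS_apoEV replicate 2 (0.0688) or control replicate 1 (0.0522) or 2 (0.0732). MT-TV, between the rRNA genes, had 17, 13.9 and 17.3 CPM with STS_apoEV, 26.4, 22.6 and 24.3 CPM with DDP_apoEV and 18.5, 19.8 and 16.5 CPM in control, with DDP_apoEV wholly above both other groups. It rose by 0.42 ± 0.12 with DDP_apoEV (adjusted p = 0.0122), a call lost without DDP_apoEV replicate 1 (0.08) or control replicate 3 (0.0844), and its change with STS_apoEV was −0.19 ± 0.12 (adjusted p = 0.253). MT-TW, for tryptophan, had 2.24, 2.02 and 3.03 CPM with STS_apoEV, 2.69, 2.93 and 3.18 CPM with DDP_apoEV and 2.02, 1.3 and 0.833 CPM in control. Both vesicle groups lay above control, although STS_apoEV replicate 2 and control replicate 1 were equal after rounding. MT-TW rose by 1.07 ± 0.32 with DDP_apoEV (adjusted p = 0.0191), a call lost without DDP_apoEV replicate 3 (0.0605) or control replicate 2 (0.0653) or 3 (0.131). With STS_apoEV its change was 0.80 ± 0.33 (adjusted p = 0.0591), called without control replicate 1 (0.0179) or with limma on either log2 FPKM scale (0.0400 and 0.0402).

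**Figure D4:**
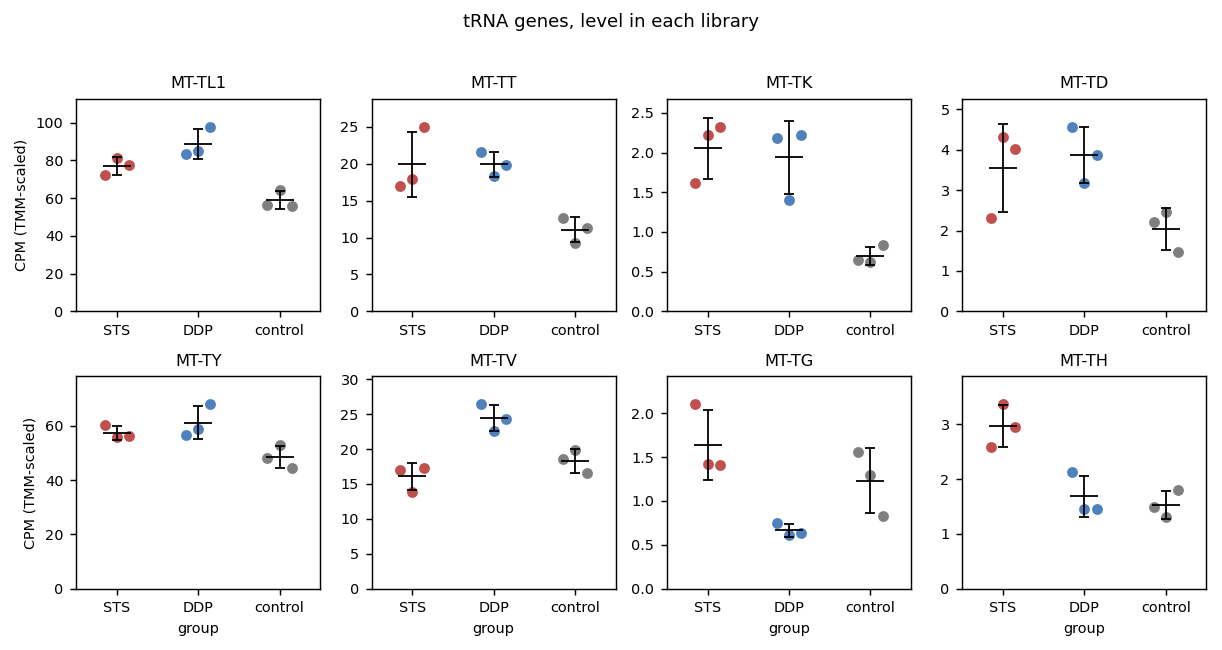
Level of 8 mitochondrial tRNA genes (vertical axis, TMM-scaled CPM from 0) in each library, for STS_apoEV, DDP_apoEV and control from left to right, with points for libraries and bars for the mean ± SD of 3. MT-TL1, MT-TT and MT-TK lie above control in all 6 vesicle libraries, MT-TV is highest with DDP_apoEV and MT-TH with STS_apoEV.

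Another 5 plus-strand tRNA genes were not called against control. MT-TG had 2.1, 1.42 and 1.41 CPM with STS_apoEV, 0.75, 0.609 and 0.635 CPM with DDP_apoEV and 1.56, 1.3 and 0.833 CPM in control, so that DDP_apoEV lay wholly below both other groups (log2 fold change 0.41 ± 0.39 with STS_apoEV, adjusted p = 0.462, and −0.88 ± 0.43 with DDP_apoEV, adjusted p = 0.173). Limma on either log2 FPKM scale called MT-TG lower with DDP_apoEV (0.0489 and 0.0456). MT-TI, for isoleucine, had 2.03, 1.96 and 3.17 CPM with STS_apoEV, 2.81, 3.11 and 2.03 CPM with DDP_apoEV and 2.67, 2.53 and 2.57 CPM in control, and MT-TM, for methionine, had 2.17, 2.5 and 2.82 CPM with STS_apoEV, 1.88, 1.58 and 3.24 CPM with DDP_apoEV and 1.95, 3.21 and 2.08 CPM in control. Groups overlapped in both genes, and the smallest adjusted p against control was 0.799. MT-TR, for arginine, had 1.19, 2.63 and 3.03 CPM with STS_apoEV, 1.38, 1.89 and 1.46 CPM with DDP_apoEV and 2.21, 2.12 and 1.53 CPM in control, and the gene for a further leucine tRNA, MT-TL2, had 0.771, 0.809 and 1.41 CPM with STS_apoEV, 0.688, 0.853 and 0.318 CPM with DDP_apoEV and 1.24, 0.41 and 0.555 CPM in control. Again all groups overlapped, and no adjusted p was below 0.577.

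Of the 8 tRNA genes on the minus strand, 3 rose with STS_apoEV and 1 with DDP_apoEV, beside 15.9% and 7.16% of all genes called higher. The 1 of 8 is near its share and is not a result about the strand. MT-TC, the most counted tRNA gene, had 202, 237 and 252 CPM with STS_apoEV, 223, 199.7 and 211 CPM with DDP_apoEV and 181, 199 and 162 CPM in control. Both vesicle groups lay above control. It rose by 0.35 ± 0.08 with STS_apoEV (adjusted p = 0.00139) in every fit that left out 1 library. The DDP_apoEV change of 0.22 ± 0.08 was not called (adjusted p = 0.0667) except without control replicate 2 (0.0249) or in a fit of the compared libraries alone (0.0320). MT-TY, which overlaps MT-TC by 1 base, had 60.4, 55.7 and 56.2 CPM with STS_apoEV, 56.6, 58.8 and 68 CPM with DDP_apoEV and 48.2, 52.9 and 44.6 CPM in control, with both vesicle groups above control. MT-TY rose by 0.24 ± 0.09 with STS_apoEV (adjusted p = 0.0344) and by 0.33 ± 0.09 with DDP_apoEV (adjusted p = 0.00792). The STS_apoEV call was lost without STS_apoEV replicate 1 (0.153) or control replicate 1 (0.106) or 3 (0.171), with limma on either log2 FPKM scale (0.0758 and 0.0749), with no filter on low counts (0.0987) or with DESeq2 (0.0551), and the DDP_apoEV call without DDP_apoEV replicate 3 (0.0863) or control replicate 3 (0.0702).

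MT-TP, at the far end of the map beside MT-TT, had 95.5, 117 and 104 CPM with STS_apoEV, 86.5, 99.3 and 96.3 CPM with DDP_apoEV and 78.3, 92.6 and 90.5 CPM in control, with STS_apoEV wholly above control and DDP_apoEV overlapping both. It rose by 0.28 ± 0.09 with STS_apoEV (adjusted p = 0.0127), a call lost without STS_apoEV replicate 2 (0.103) or control replicate 1 (0.138) or with limma on either log2 FPKM scale (0.0704 and 0.0701), and was not called with DDP_apoEV (0.11 ± 0.09, adjusted p = 0.448). MT-TN had 171, 218 and 260.4 CPM with STS_apoEV, 216, 190.2 and 234 CPM with DDP_apoEV and 177, 176 and 139 CPM in control. DDP_apoEV lay wholly above control, and STS_apoEV replicate 1 lay within it. Its changes of 0.40 ± 0.17 with STS_apoEV (adjusted p = 0.127) and 0.38 ± 0.17 with DDP_apoEV (adjusted p = 0.212) were not called, although the STS_apoEV change was called without STS_apoEV replicate 1 (0.00235). With no filter on low counts both were called (0.000140 and 0.000336), as with limma-voom (0.0191 and 0.0377). In a fit of the compared libraries alone the DDP_apoEV change was called (0.0194).

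The 4 minus-strand tRNA genes with few counts were not called. MT-TE, for glutamate, had 5.26, 4.18 and 4.43 CPM with STS_apoEV, 4.13, 4.39 and 6.16 CPM with DDP_apoEV and 2.93, 3.97 and 2.64 CPM in control, above control in all 6 vesicle libraries (adjusted p = 0.0879 with STS_apoEV and 0.0786 with DDP_apoEV). Without control replicate 2 both changes were called (0.0470 and 0.0487). MT-TS1, for serine, had 2.1, 2.77 and 1.69 CPM with STS_apoEV, 3.13, 2.56 and 2.41 CPM with DDP_apoEV and 1.24, 1.92 and 1.46 CPM in control, with DDP_apoEV wholly above control and STS_apoEV overlapping it (adjusted p = 0.234 with STS_apoEV and 0.0757 with DDP_apoEV). Limma on either log2 FPKM scale called its DDP_apoEV change (0.0280 and 0.0275). MT-TQ, for glutamine, had 1.33, 1.35 and 1.27 CPM with STS_apoEV, 2.5, 1.28 and 1.84 CPM with DDP_apoEV and 1.3, 1.71 and 1.32 CPM in control, and MT-TA, for alanine, had 0.491, 0.742 and 0.563 CPM with STS_apoEV, 0.438, 0.488 and 0.826 CPM with DDP_apoEV and 0.781, 0.41 and 0.208 CPM in control. Groups overlapped in both, and no adjusted p against control was below 0.541.

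Strand and position were set beside these changes as descriptions. The minus-strand genes held 82.1% ± 0.679 of tRNA counts with STS_apoEV, 79.5% ± 0.139 with DDP_apoEV and 82.5% ± 0.417 in control (SD, n = 3). DDP_apoEV lay wholly below both other groups (exact permutation p = 0.1 each). Among tested plus-strand tRNA genes, mean CPM was highest with DDP_apoEV for MT-TV, MT-TL1, MT-TI, MT-TW and MT-TD. It was lowest with DDP_apoEV for MT-TG, MT-TM, MT-TR and MT-TL2. The part that single genes play in the strand share was not tested. MT-ND6 took 0.829% ± 0.0151 of the mitochondrial protein-gene counts with STS_apoEV, 0.940% ± 0.0756 with DDP_apoEV and 0.725% ± 0.0545 in control, with no overlap between any groups (exact permutation p = 0.1 each). These counts of minus-strand genes may include reads of the opposite strand. Across the 20 tRNA genes, start position and log2 fold change had a Spearman correlation of 0.55 for STS_apoEV against control, −0.10 for DDP_apoEV against control and 0.62 for STS_apoEV against DDP_apoEV. Across the 12 plus-strand protein genes the same correlations were 0.12, 0.18 and −0.06.

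The direct comparison of STS_apoEV with DDP_apoEV had 7 calls, and 1 of them, MT-TV, held in every fit that left out 1 library. MT-TV, 16.1 ± 1.9 CPM with STS_apoEV and 24.5 ± 1.92 CPM with DDP_apoEV (SD, n = 3), was lower with STS_apoEV (log2 fold change −0.61 ± 0.12, adjusted p = 0.000106). Its libraries did not overlap. MT-TG, 1.64 ± 0.399 CPM with STS_apoEV and 0.665 ± 0.0749 CPM with DDP_apoEV, was 2.45-fold higher with STS_apoEV (1.29 ± 0.42, adjusted p = 0.0129), a call lost without STS_apoEV replicate 1 (0.0804). MT-TH, 2.97 ± 0.389 and 1.68 ± 0.383 CPM, was 1.76-fold higher (0.82 ± 0.31, adjusted p = 0.0318), a call lost without STS_apoEV replicate 2 (0.108) or 3 (0.0588) or DDP_apoEV replicate 2 (0.105) or 3 (0.103), with no filter on low counts (0.0869) or with DESeq2 (0.0509). In MT-TG and MT-TH, too, the libraries did not overlap, at means from 0.665 to 2.97 CPM.

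Of the protein genes, MT-ND5, MT-ND1 and MT-ND4L were lower and MT-ATP8 higher with STS_apoEV than with DDP_apoEV. MT-ND4L stood at 1133 ± 139.8 CPM with STS_apoEV and 1469.7 ± 153 CPM with DDP_apoEV (SD, n = 3; −0.38 ± 0.12, adjusted p = 0.0275), with no overlap. That call was lost without STS_apoEV replicate 1 (0.121) or 2 (0.147) or DDP_apoEV replicate 3 (0.0573). MT-ND5 differed by −0.19 ± 0.07 (adjusted p = 0.0238), a call lost without STS_apoEV replicate 2 (0.056) or DDP_apoEV replicate 3 (0.108) or with upper-quartile factors (0.0633). MT-ND1 differed by −0.17 ± 0.07 (adjusted p = 0.0456), a call lost without STS_apoEV replicate 1 (0.11) or 2 (0.0541) or DDP_apoEV replicate 2 (0.0514) or 3 (0.244), with upper-quartile factors (0.115), with no filter on low counts (0.0704) or in a fit of the compared libraries alone (0.0669). MT-ATP8, 64 ± 4.27 CPM with STS_apoEV and 49.7 ± 11.7 CPM with DDP_apoEV, overlapped between the groups, and its change of 0.36 ± 0.13 (adjusted p = 0.0382) was lost without STS_apoEV replicate 1 (0.0614), 2 (0.174) or 3 (0.118) or DDP_apoEV replicate 2 (0.129) or 3 (0.118), with limma on either log2 FPKM scale (0.076 and 0.0747) or in a fit of the compared libraries alone (0.0799). The ratio of MT-ATP6 to MT-ATP8 FPKM ran from 36.9 to 39.6 with STS_apoEV and from 37.7 to 62.7 with DDP_apoEV. These genes overlap, and the part that read assignment plays in the ratio was not tested.

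Without reaching a call, MT-CYB (0.16 ± 0.07, adjusted p = 0.0697) was wholly higher and MT-TL1 (−0.20 ± 0.08, adjusted p = 0.056) wholly lower with STS_apoEV than with DDP_apoEV. MT-CYB was called with upper-quartile factors (0.0333) and with limma-voom (0.0381). MT-TL1 was called without STS_apoEV replicate 2 (0.0339) or DDP_apoEV replicate 1 (0.0437) or 2 (0.0452). It was also called with median-of-ratios size factors (0.0425) and with scaling from nuclear genes only (0.0431). MT-ND6 (−0.14 ± 0.07, adjusted p = 0.109) was called without DDP_apoEV replicate 2 (0.0305). For MT-CO1 the difference was 0.12 (95% interval −0.01 to 0.25, adjusted p = 0.144), for MT-RNR1 0.14 (−0.01 to 0.29, adjusted p = 0.149) and for MT-RNR2 −0.02 (−0.15 to 0.12, adjusted p = 0.857).

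When library scaling used the mitochondrial counts alone, so that each gene was set against the mitochondrial pool, 7 of the 14 genes remained higher and 1 other was lower with STS_apoEV than in control, where 31.4% of all genes tested were called (10.7% higher and 20.7% lower). The 7 were MT-ND5 (0.19 ± 0.08), MT-ND6 (0.22 ± 0.08), MT-TL1, MT-TC, MT-TK, MT-TH and MT-TT. MT-ND4L was the lower gene (−0.24 ± 0.09, adjusted p = 0.0397). The calls of MT-ND1, MT-ND2, MT-CO3, MT-CYB, MT-TY, MT-TD and MT-TP were lost on that scale, MT-CYB narrowly (adjusted p = 0.0542). With DDP_apoEV 8 of the 10 remained (13% of all genes called, 3.62% higher and 9.4% lower), among them MT-ND1 (0.34 ± 0.07) and MT-ND5 (0.41 ± 0.08), and MT-TV and MT-TY were lost (adjusted p = 0.0705 and 0.08). All 7 calls between the vesicle types remained (36.2% of all genes called, 17% higher and 19.2% lower).

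Nuclear genes that serve the mitochondrial genome were counted beside its transcripts. Their counts stand beside the shares of all genes given above, 15.9% higher and 16.8% lower with STS_apoEV, 7.16% and 8.32% with DDP_apoEV, and 20.2% and 19.5% between vesicle types, and a count near such a share is not a result about its list. They include POLRMT, the mitochondrial RNA polymerase, and TFAM and TFB2M, its initiation factors. Of 10 transcription genes tested, 1 rose and 0 fell with STS_apoEV (median log2 fold change −0.08, beside 0.01 for all genes), with 0 higher in 5 of the 6 fits that leave out a compared library, and 1 rose and 0 fell with DDP_apoEV (0.17, beside −0.0033). Between STS_apoEV and DDP_apoEV, 1 was higher and 5 were lower (−0.27, beside 0.03), or 3 lower without DDP_apoEV replicate 1. At an unadjusted p under 0.05, 2 were lower with STS_apoEV and 0 with DDP_apoEV than in control, and DESeq2 called 1 and 0 lower. POLRMT had 39.7 ± 5.39 CPM with STS_apoEV, 48.7 ± 7.05 CPM with DDP_apoEV and 40.7 ± 1.47 CPM in control (SD, n = 3) and was lower with STS_apoEV than with DDP_apoEV (−0.30 ± 0.10, adjusted p = 0.0239), a call lost without STS_apoEV replicate 3 (0.166) or DDP_apoEV replicate 1 (0.119) or 2 (0.0965) or with limma on either log2 FPKM scale (0.0683 and 0.0688). Against control its change with DDP_apoEV was called only without DDP_apoEV replicate 3 (adjusted p = 0.011) among the alternatives run. TFAM had 103 ± 8.46, 123 ± 5.2 and 107 ± 8.15 CPM and was also lower (−0.26 ± 0.08, adjusted p = 0.00934), except without STS_apoEV replicate 2 (0.059). TFB2M had 44.3 ± 2.32, 53.4 ± 2.56 and 43.9 ± 0.2 CPM. It rose with DDP_apoEV (0.28 ± 0.08, adjusted p = 0.0163), a call lost without DDP_apoEV replicate 1 (0.0868) or control replicate 1 (0.0502) or 3 (0.0574). The elongation factor gene TEFM had 15.9 ± 1.81, 18.8 ± 2.99 and 19 ± 0.178 CPM and was not called. MTERF4, which acts in ribosome assembly, was the 1 called higher with STS_apoEV against control (0.25 ± 0.10, adjusted p = 0.0433), a call lost without STS_apoEV replicate 1 (0.0909), 2 (0.0682) or 3 (0.0943) or control replicate 2 (0.192) or 3 (0.0871), with limma on either log2 FPKM scale (0.0802 and 0.0786), with median-of-ratios size factors (0.0504), with scaling from nuclear genes only (0.0554), with no filter on low counts (0.134) or with DESeq2 (0.0681).

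The list of mitochondrial RNA processing and turnover holds enzymes and RNA-binding proteins that cut, modify, stabilise and degrade these transcripts. Of 34 tested, 9 fell and 1 rose with STS_apoEV against control (median −0.14, beside 0.01), 0 fell and 6 rose with DDP_apoEV (median 0.14, beside −0.0033), and 19 were lower and 0 higher with STS_apoEV than with DDP_apoEV (median −0.31, beside 0.03). The DDP_apoEV count was between 2, without DDP_apoEV replicate 1, and 4 in the fits that left out 1 library. PNPT1, the polynucleotide phosphorylase that degrades mitochondrial RNA, had 71.7 ± 5.48 CPM with STS_apoEV, 109 ± 7.65 CPM with DDP_apoEV and 96.3 ± 6.87 CPM in control. It fell by 0.43 on the log2 scale with STS_apoEV (adjusted p = 0.000126) and was not called with DDP_apoEV (adjusted p = 0.132). LRPPRC, which with SLIRP binds and stabilises mitochondrial mRNA, had 366 ± 31.3, 496 ± 3.42 and 469 ± 22.9 CPM and fell by 0.36 with STS_apoEV (adjusted p = 0.000196). SLIRP had 59.8 ± 11.2, 80.0 ± 13.3 and 68.7 ± 7.73 CPM and was not called.

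ELAC2, the nuclease that cuts at the 3′ end of tRNAs, had 63.3 ± 6.57 CPM with STS_apoEV, 95.3 ± 10.1 CPM with DDP_apoEV and 71 ± 4.67 CPM in control. It rose by 0.43 ± 0.09 with DDP_apoEV (adjusted p = 0.000714) and was lower with STS_apoEV than with DDP_apoEV (−0.59 ± 0.09, adjusted p = 2.22e-06). TRMT10C, a subunit of the RNase P that cuts at the 5′ end, had 47.9 ± 2.19, 57 ± 3.01 and 51.7 ± 2.52 CPM with STS_apoEV, with DDP_apoEV and in control. It was called between the vesicle types and in neither comparison with control (−0.25 ± 0.08, adjusted p = 0.0163), a call lost without STS_apoEV replicate 1 (0.0576) or DDP_apoEV replicate 1 (0.0537) or 3 (0.074). The same held for MTPAP, the mitochondrial poly(A) polymerase gene (46.8 ± 1.9, 55.1 ± 4.85 and 50.9 ± 2.52 CPM; −0.24 ± 0.09, adjusted p = 0.0289), a call lost without STS_apoEV replicate 1 (0.0887) or 2 (0.056) or DDP_apoEV replicate 1 (0.0884) or 3 (0.153) or with upper-quartile factors (0.0599). Whether the processing genes bear on the mitochondrial transcripts was not tested.

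Most genes for mitochondrial tRNA synthetases, the enzymes that charge the tRNAs, fell with STS_apoEV. Of 17 tested, 11 fell and 0 rose with STS_apoEV (8 to 10 fell with 1 library left out), 0 fell and 1 rose with DDP_apoEV, and 10 were lower with STS_apoEV than with DDP_apoEV. The medians were −0.35, 0.05 and −0.39. By DESeq2 and limma-voom, too, 0 rose with STS_apoEV and 0 fell with DDP_apoEV, and at an unadjusted p under 0.05 edgeR had 1 and 0. GARS1, which charges glycine tRNAs in mitochondria and cytosol, fell by 0.45 (adjusted p = 7.12e-06), while NARS2, for asparagine, fell by 0.59 (adjusted p = 3.9e-05).

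Mitochondrial ribosomal protein genes build the ribosome that translates the 13 mitochondrial mRNAs. Of 48 large-subunit genes, 13 fell and 1 rose with STS_apoEV, 0 fell and 1 rose with DDP_apoEV, and 27 were lower with STS_apoEV than with DDP_apoEV (14 without STS_apoEV replicate 1). Of 25 small-subunit genes, 4 fell and 0 rose with STS_apoEV, 0 fell and 3 rose with DDP_apoEV (1 without control replicate 3), and 10 were lower with STS_apoEV than with DDP_apoEV. The 4 of 25 lower with STS_apoEV are close to the 16.8% of all genes called lower. At an unadjusted p under 0.05, as with DESeq2 and limma-voom, 0 of the 48 and 0 of the 25 were lower with DDP_apoEV than in control. MRPS27, of the small subunit, had 89.4 ± 0.948 CPM with STS_apoEV, 141 ± 2.12 CPM with DDP_apoEV and 119 ± 0.954 CPM in control, and fell by 0.41 with STS_apoEV (adjusted p = 3.39e-05).

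Nuclear genes for respiratory chain subunits were set beside their mitochondrial partners. For complex IV, 4 of 12 rose and 0 fell with STS_apoEV (median 0.20), none was called with DDP_apoEV (median −0.03, with 0 also at an unadjusted p under 0.05 and by DESeq2 and limma-voom), and 7 were higher with STS_apoEV than with DDP_apoEV. With 1 library left out the first count ran from 2 without STS_apoEV replicate 3 to 9 without STS_apoEV replicate 1, and the last from 3 without DDP_apoEV replicate 2 to 10 without STS_apoEV replicate 1. COX4I1, a subunit with a regulatory role, had 402 ± 37.3 CPM with STS_apoEV and 335 ± 8.48 CPM in control (SD, n = 3; 0.26 ± 0.07, adjusted p = 0.00482). For complex I, 1 of 34 rose and 1 fell with STS_apoEV (0 rose without STS_apoEV replicate 3 or control replicate 3, 2 without control replicate 1 and 4 without STS_apoEV replicate 1, where 0 fell), 1 rose and 0 fell with DDP_apoEV (0 rose and 1 fell without DDP_apoEV replicate 1, 2 rose without DDP_apoEV replicate 3 or control replicate 1), and 5 were higher and 2 lower with STS_apoEV than with DDP_apoEV (2 higher without DDP_apoEV replicate 2, 0 lower without STS_apoEV replicate 1). For complex III, 1 of 9 rose and 3 fell with STS_apoEV (1 fell without STS_apoEV replicate 1) while its mitochondrial subunit gene MT-CYB rose, and 0 were called with DDP_apoEV. For complex V, 1 of 17 rose and 2 fell with STS_apoEV, and 0 were called with DDP_apoEV. DESeq2 and limma-voom also called 0 of either with DDP_apoEV, and edgeR at an unadjusted p under 0.05 had 0 for complex III and 3 for complex V. Complex II, which has no mitochondrial gene, had 1 of 4 lower with STS_apoEV, SDHB (−0.44 ± 0.08, adjusted p = 8.27e-05).

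**Figure D5:**
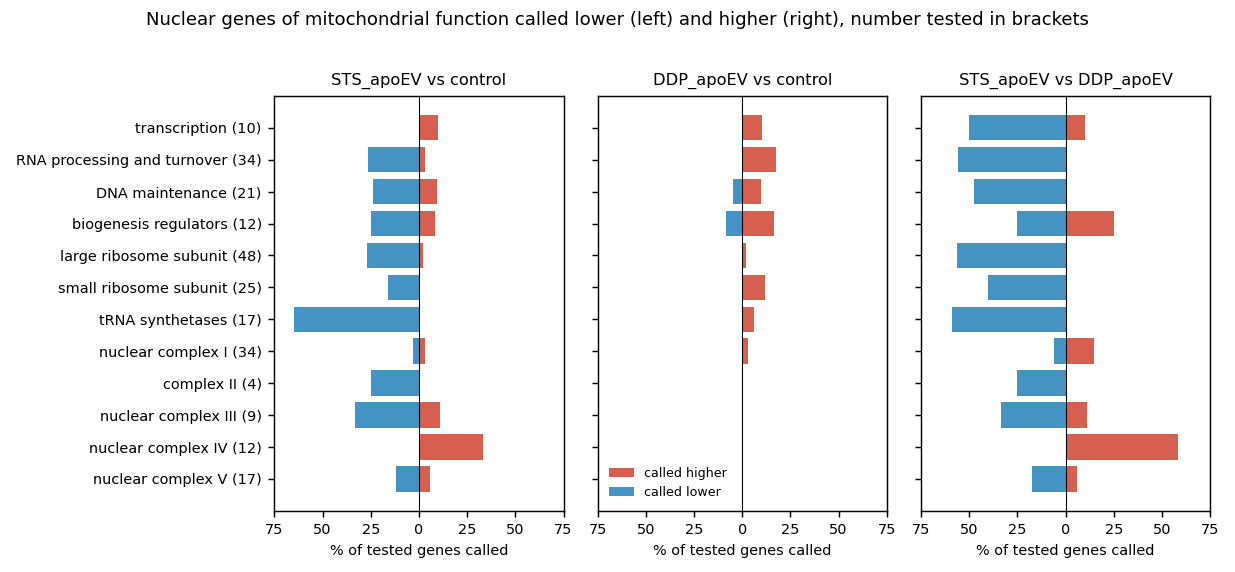
Percent of the tested genes of each nuclear list called lower (left of 0) or higher (right of 0) in the 3 comparisons, with the number tested in brackets. The tRNA synthetase list has 11 of 17 genes lower with STS_apoEV against control, and 0 of 17 lower with DDP_apoEV against control.

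Of 12 regulators of mitochondrial biogenesis, 1 rose and 3 fell with STS_apoEV, 2 rose and 1 fell with DDP_apoEV, and 3 were higher (1 without DDP_apoEV replicate 2) and 3 lower with STS_apoEV than with DDP_apoEV. PPARGC1A, a coactivator of genes for mitochondrial function, had 11.2 ± 0.526 CPM with STS_apoEV, 1.63 ± 0.583 CPM with DDP_apoEV and 6.96 ± 0.298 CPM in control (SD, n = 3). It rose by 0.68 ± 0.19 with STS_apoEV (adjusted p = 0.00546) and fell by 2.09 on the log2 scale with DDP_apoEV (adjusted p = 1.73e-08), and the direct difference was 2.78 ± 0.22 (adjusted p = 6.14e-12). NRF1, a transcription factor for the same genes, had 21 ± 1.64, 22.6 ± 1.06 and 23.7 ± 1.86 CPM and was not called. The transcription factor gene MYC and PPRC1, a coactivator gene related to PPARGC1A, fell with STS_apoEV (−0.30 ± 0.09 and −0.46 ± 0.10, adjusted p = 0.0071 and 0.00034) and rose with DDP_apoEV (0.37 ± 0.08 and 0.41 ± 0.09, adjusted p = 0.00192 and 0.00192). Of 21 genes for mitochondrial DNA maintenance, 2 rose and 5 fell with STS_apoEV (1 and 3 without control replicate 1), 2 rose and 1 fell with DDP_apoEV, and 10 were lower with STS_apoEV than with DDP_apoEV. POLG, the mitochondrial DNA polymerase gene, fell by 0.23 on the log2 scale with STS_apoEV (adjusted p = 0.0401), a call lost without STS_apoEV replicate 2 (0.0859) or 3 (0.102) or control replicate 1 (0.0545) or 2 (0.222), with upper-quartile factors (0.0704), with no filter on low counts (0.0544) or in a fit of the compared libraries alone (0.05). The helicase gene TWNK had 22.2 ± 1.5, 27.2 ± 3.43 and 23.6 ± 2.38 CPM and was lower with STS_apoEV than with DDP_apoEV (−0.29 ± 0.11, adjusted p = 0.0361), a call lost without STS_apoEV replicate 1 (0.127) or 3 (0.0758) or DDP_apoEV replicate 1 (0.137) or 3 (0.148), with upper-quartile factors (0.0635), with limma-voom (0.0544) or with limma on log2(FPKM + 0.1) (0.0501).

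Some RNAs without a poly(A) tail also differed between groups. Of 20 such RNAs listed, mostly replication-dependent histone RNAs, 10 were tested. With STS_apoEV 6 rose and 0 fell, with DDP_apoEV 4 rose and 0 fell (1 without control replicate 1), and 5 were higher and 1 lower with STS_apoEV than with DDP_apoEV. Their summed level was 861, 1081 and 464 CPM with STS_apoEV, 988, 514 and 953 CPM with DDP_apoEV, and 522, 479.6 and 573 CPM in control, with RN7SL1 at 595 ± 299, 666 ± 269 and 395 ± 44.3 CPM in the 3 groups and not called. The summed levels of both vesicle groups overlapped control. H1-2, a linker histone gene, had 45.9 ± 4.66, 29 ± 3.76 and 20.9 ± 1.96 CPM. The labels name mRNA sequencing without a selection step, and the part that capture of RNAs without a tail plays in the mitochondrial counts was not tested. Nuclear copies of mitochondrial genes numbered 404 rows, of which 8 passed the filter and 0 were called by edgeR in any comparison. At an unadjusted p under 0.05, 1 was higher with DDP_apoEV than in control, limma-voom called 1 higher in that comparison and 1 lower between the vesicle types, and DESeq2 called 0. MTND2P28 was called without DDP_apoEV replicate 1 (0.000481) as higher with DDP_apoEV than in control and without DDP_apoEV replicate 1 (0.0187) as lower with STS_apoEV than with DDP_apoEV, and with no filter on low counts it was called higher with DDP_apoEV (0.000268). They share sequence with the mitochondrial genes, and the part that read sharing plays in the values above was not tested.

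Markers of the line and of other cells were read in the same fit. Of 5 epithelial markers, KRT8 and KRT18 led and EPCAM had at most 3.69 CPM. Their summed level was 6637 to 7980.3 CPM with STS_apoEV, 5650 to 6146 CPM with DDP_apoEV and 10088 to 11022 CPM in control, with both vesicle groups wholly below control. In the edgeR test 4 of the 5 fell with STS_apoEV, among them KRT18 (log2 fold change −0.85 ± 0.07, adjusted p = 1.2e-11), and the other, KRT19, rose (0.36). With DDP_apoEV 3 of the 5 fell, among them KRT8 (−0.83 ± 0.08, adjusted p = 5.15e-10). Marker lists of leukocytes, fibroblasts, endothelium and erythroid cells summed to at most 8.04, 2.78, 4.32 and 0.607 CPM in any library. PECAM1, an endothelial adhesion gene, had 2.51 ± 0.758 CPM with STS_apoEV and 0.16 ± 0.108 CPM in control, and ITGAM, a leukocyte integrin gene, had 6.43 ± 0.793 CPM with STS_apoEV and 3.14 ± 0.917 CPM in control. Both were called higher. CDH5, the other of the 2 endothelial markers tested, went the other way with STS_apoEV (log2 fold change −0.46) and was not called. The leukocyte-defining PTPRC had at most 0.210 CPM, and HBA2 had no count in any library. The part these differences play in the mitochondrial counts was not tested.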

How the data were processed

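Per the labels' protocols, RNA was isolated with TRIzol, and a NEBNext Ultra RNA kit was used to build the libraries. The authors deposited whole-number read counts per gene and FPKM values for 62257 gene rows, 1 column per library. The submitters' processing notes name featureCounts 1.5.0-p3, limma, HISAT2 2.0.5, StringTie 1.3.3b and build hg38, without roles. Per the file headers and their values, the authors' FPKM are those counts divided by the deposited gene length and by a factor for each library. No source used here says how reads with several matches were counted. The 705 rows for unannotated loci held 0.313% to 0.357% of the counts and were kept.

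Counts were tested with edgeR 4.0.16 in R 4.3.3 (TMM, filterByExpr with a minimum count of 10, robust quasi-likelihood fit of all 9 libraries, no covariates, Benjamini-Hochberg adjustment over 16947 genes, threshold 0.05). The common biological coefficient of variation was 0.0992. Shares and the ratio of MT-TL1 to MT-RNR2 counts were compared by exact two-sided permutation over 3 and 3 libraries, which cannot go below 0.1. The FPKM ratios were described without a test. The plan held the mitochondrial, rRNA, tRNA and MT-ND6 shares, and the other shares and the FPKM ratios were outside it. Replicates of a group differed beyond sampling noise (chi-square per degree of freedom 5.56 to 8.46), so each counted as 1 sample. Each SE is the absolute log2 fold change divided by the square root of the quasi-likelihood F. Intervals are 95% Wald intervals of the log2 fold change from that SE and a normal quantile. They can be narrower than the test implies: MT-TN with DDP_apoEV had 0.04 to 0.72 at an unadjusted edgeR p of 0.0624.

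Every mitochondrial gene that passed the filter is given by library, with the rest by range. Of each nuclear list, genes were named from a fixed set of 13 and from the called genes of smallest p, at most 4 per comparison; MTND2P28, MTCO1P12, RN7SL1 and KRT19 were named after their values were seen. Members and lists were chosen with earlier results of these data known. Sequences came from GENCODE v29 transcripts. Alternatives were median-of-ratios and upper-quartile factors, scaling from nuclear genes or from the mitochondrial pool, no filter, 1 CPM in 3 libraries, DESeq2 1.42.0, limma 3.58.1 with voom, limma on log2(FPKM + 1), with mean FPKM of 1 or more or unfiltered, and on log2(FPKM + 0.1), a replicate block, the compared libraries alone, and each library left out. Tested on simulated data, the fit recovered 61, 64 and 69 of 100 genes changed 1.5-fold and 90, 87 and 89 of 100 changed 2-fold for STS_apoEV against control, DDP_apoEV against control and STS_apoEV against DDP_apoEV, on 16530, 16540 and 16530 genes, with 6.79%, 6.21% and 6.51% of calls false.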

Additional observations from a re-analysis of the deposited data

How the results depend on the processing

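The number of mitochondrial genes called stayed within 1.5 times its value under most settings, less steadily between vesicle types than against control. Limma on log2(FPKM + 1) with no filter on low values called 3 genes for STS_apoEV against control, 4 for DDP_apoEV against control and 3 for STS_apoEV against DDP_apoEV, and scaling to the mitochondrial pool called 8 for STS_apoEV against control. With 1 library left out the counts ran from 9 to 16, from 7 to 12 and from 2 to 8. The 9 came without control replicate 1. Between vesicle types the 7 calls fell to 2 without DDP_apoEV replicate 3 and to 3 without STS_apoEV replicate 1 or 2. Replicate numbers are shared by the groups. Across genes, the deviations of same-numbered libraries from their group means in log CPM correlated at −0.085 to 0.055, so the numbers do not show a pairing. A fit with the replicate number as a block called 13, 10 and 6 genes, without MT-TY for STS_apoEV against control (adjusted p = 0.0506) and MT-ND1 between vesicle types (adjusted p = 0.0704), and also without the nuclear gene POLG for STS_apoEV against control (adjusted p = 0.0541). The tRNA share differed by −0.0039 percentage points between STS_apoEV and DDP_apoEV, by 0.0127 points from summed FPKM and by −0.0209 to 0.0181 points with 1 library left out.

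Sign changes touched differences that were not called. Relative to the mitochondrial pool, the log2 fold change was −0.047 for MT-TM, −0.073 for MT-CO1, −0.046 for MT-ND4 and −0.079 for TFB2M with STS_apoEV, −0.022 for MT-RNR1 and −0.023 for MT-TI with DDP_apoEV, and −0.015 for MT-TN between vesicle types. With no filter it was −0.0015 for MT-CO1 and −0.0071 for TFB2M with STS_apoEV and −0.00013 for MT-TN between vesicle types. Limma on log2(FPKM + 1), log2(FPKM + 0.1) and log2(FPKM + 1) with no filter gave −0.0024, −0.0025 and −0.0024 for TFB2M with STS_apoEV, and −0.020, −0.020 and −0.020 for MT-TN and −0.039, −0.040 and −0.039 for MT-TT between vesicle types. Upper-quartile factors gave 0.012 for MT-RNR2 between vesicle types. MT-TT between vesicle types also had −0.012 with median-of-ratios factors, −0.010 with nuclear scaling, −0.011 with DESeq2, −0.033 relative to the pool, −0.017 with no filter, −0.017 with limma-voom, −0.0027 with the 1 CPM filter, −0.0053 with the replicate block and −0.0079 with the compared libraries alone.

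With 1 library left out, the STS_apoEV changes ran from −0.023 to 0.037 for MT-CO1, −0.020 to 0.079 for MT-ND4, −0.38 to 0.0060 for MT-TI, −0.10 to 0.31 for MT-TM, −0.21 to 0.0070 for MT-TQ, −0.029 to 0.52 for MT-TR, −0.23 to 0.014 for MTCO1P12, −0.12 to 0.071 for POLRMT, −0.12 to 0.0051 for TFAM and −0.028 to 0.046 for TFB2M. The DDP_apoEV changes ran from −0.22 to 0.11 for MT-ATP8, −0.037 to 0.89 for MT-TA, −0.068 to 0.26 for MT-TH, −0.093 to 0.19 for MT-TI, −0.54 to 0.36 for MT-TL2, −0.48 to 0.14 for MT-TM and −0.091 to 0.041 for MTERF4. The changes between vesicle types ran from −0.0083 to 0.11 for MT-ND2, −0.053 to 0.24 for MT-ND3, −0.089 to 0.026 for MT-RNR2, −0.14 to 0.37 for MT-TA, −0.29 to 0.10 for MT-TD, −0.19 to 0.12 for MT-TE, −0.11 to 0.22 for MT-TK, −0.047 to 0.53 for MT-TM, −0.14 to 0.16 for MT-TN, −0.19 to 0.10 for MT-TT and −0.29 to 0.020 for MTND2P28. POLRMT, TFAM, TFB2M and MTERF4 are nuclear transcription genes, and MTCO1P12 and MTND2P28 are nuclear copies. The cause of these changes was not tested. Genes under about 3 CPM rest on few counts per library, which limits what their values can show.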
